A study of Drosophila melanogaster with 46 samples.

Results

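Ageing of control (C) flies on overfeeding was measured on 7 of the 46 arrays of the study, 4 of middle-aged and 3 of old females. They were chosen by their labels alone (line C, overfed, and the age class), and no expression value entered the choice. Each array read the RNA of a pool of 5 whole virgin Drosophila melanogaster females on an Affymetrix Drosophila genome array with 18952 probe sets. Overfed flies lived on food at a relative concentration of 5, against 2 for optimal food and 0.5 for malnutrition. Middle-aged flies were taken when 90% of the cohort was alive and old flies when 10% was alive, so the age classes are stages of survival and the old flies are the last survivors of their cohort. The C line is the unselected control of lines selected for starvation resistance (SR), and a single line of each kind was used here. The 3 ageing comparisons set beside it use other arrays: C flies on optimal food (8 arrays), SR flies on overfeeding (8) and C flies on malnutrition (7). Of the 12 groups of line, food and age, 10 hold 4 arrays and 2, old overfed C flies among them, hold 3 after the authors left out 2 arrays for quality. No source used here says whether replicates came from separate cultures. The p-values therefore measure the spread between pools, shared over all 46 arrays of the 12 groups and not over these 7 alone.

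As background, the female fly that ages on rich food carries a large ovary, a fat body that makes yolk and most circulating immune peptides, and a midgut that secretes trypsin-like proteases and sugar-splitting maltases. Old flies are known for a raised expression of antimicrobial peptides through the Imd and Toll pathways, for a failing gut lining in which stress signalling through the kinase JNK is high, and for a loss of egg production. Metallothioneins bind metals, glutathione S-transferases and cytochrome P450 enzymes handle toxic and oxidised compounds, and the hormone axis of adipokinetic hormone mobilises stored fat and sugar.

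All values are log2 expression values made by the authors with RMA, which evens out the distribution of probe values before it summarises them. The array medians still differed slightly, at 5.08, 5.04, 5.10 and 5.10 in middle-aged and 5.12, 5.14 and 5.16 in old flies. A change is the mean of old minus the mean of middle-aged flies on the log2 scale. Levels were not compared between genes. A probe set was called when its adjusted p (limma over all 46 arrays, Benjamini-Hochberg over all probe sets) was under 0.05. With 4 against 3 arrays no exact permutation test of a single gene can pass that threshold, so all p-values of the comparison come from the fit across all probe sets. The 7 arrays correlated at 0.985 to 0.996 over all probe sets, within an age class at 0.993 or more. Of 9 genes of the male accessory gland and testis the highest value on any array was 5.47, and their mean stayed between 3.83 and 4.01; virgin females lack both tissues. In the wider list of 27 such genes, with means of 3.61 to 3.75, the accessory gland gene Acp95EF lay at 6.79 to 7.38. The mean of 7 germline markers was 9.57 to 9.96 and that of 6 midgut markers 10.95 to 11.62.

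Most genes called for age on overfeeding rose. The test called 235 probe sets (1.24% of those tested), 218 of them higher in old flies (1.15%) and 17 lower (0.0897%), which together name 216 genes. Of the 235, 226 had no overlap between the arrays of both ages. The higher calls had a median change of 1.01 and reached 2.95, and 114 of them changed by at least 1 on the log2 scale. The lower calls had a median of -0.46, and 2 of them changed by -1 or less. Most genes moved the other way by small amounts: the median change of all probe sets was -0.04, 39.2% had a change above 0, and 2224 probe sets (11.7%) against 1602 (8.45%) lay lower or higher in old flies with no overlap between arrays. At an unadjusted p under 0.05 the counts were 1630 higher and 1326 lower. RNA of whole flies was read, so a change in a gene can come from more or fewer cells of a type or from more or less RNA per cell, and these cannot be told apart here.

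**Figure D1:**
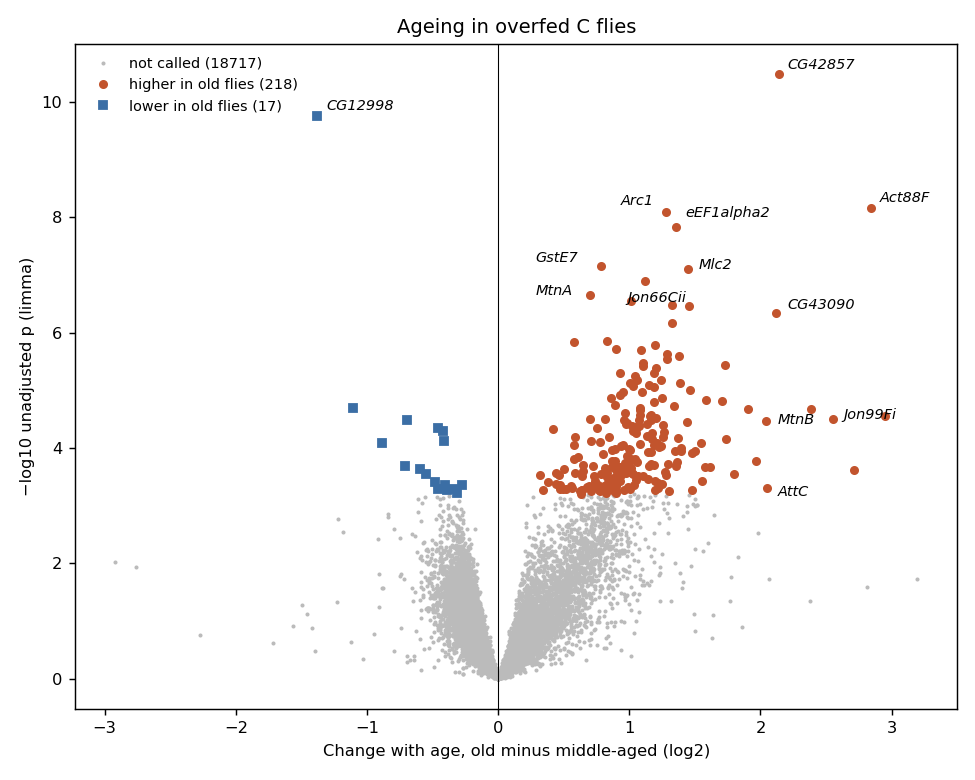
Change with age in overfed C flies (x axis, log2, old minus middle-aged) against the unadjusted p of limma (y axis, −log10), with 1 point per probe set. The 218 probe sets called higher in old flies are orange circles, the 17 called lower are blue squares and the rest are grey; the called probe sets lie mostly on the right, with Act88F, CG42857 and CG12998 apart from the others.

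The number of calls rested on single arrays. Leaving out middle-aged replicate 4 gave 383 calls, while leaving out old replicate 3 gave 27, of which 26 were among the 235. Without middle-aged replicate 3 the test called 56 probe sets, without old replicate 2 it called 87 and without middle-aged replicate 2 it called 98. The direction of all 235 was kept in each of the 7 fits that left out 1 array. The call itself was kept in all 7 by 20 probe sets, 19 higher and 1 lower: Act88F, CG42857, CG43090, CG10814, Jon66Ci, CG2157, Mlc2, vir-1, eEF1alpha2, CG31955, AnxB9, Arc1, CG31704, Jon66Cii, BNIP3, Nepl17, CG31606, GstE7 and MtnA rose and CG12998 fell.

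Act88F, the actin of the indirect flight muscle, had the largest change of any named gene whose arrays did not overlap. Its values were 6.90, 6.57, 7.01 and 7.21 in middle-aged flies (mean 6.92 ± 0.27 SD, n = 4) and 9.60, 9.71 and 9.97 in old flies (9.76 ± 0.19, n = 3). The lowest old pool stood more than 2 log2 units above the highest middle-aged pool. The change was 2.84 ± 0.38 (SE), a 7.16-fold rise with an adjusted p of 3.85e-05 in limma, and the highest adjusted p with an array left out was 0.00114. Act88F also rose on optimal food, by 2.41, from a higher start: middle-aged C flies had means of 11.29 on malnutrition, 8.40 on optimal food and 6.92 on overfeeding. In old C flies the means were 11.28, 10.81 and 9.76 in the same order, so the spread between foods that was wide at middle age was narrow at old age. The difference between the changes on overfeeding and on malnutrition was itself called, at 2.84 ± 0.54 (adjusted p = 0.0044), and that between overfeeding and optimal food was not (0.43 ± 0.52).

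Of 29 muscle genes measured, 3 were called higher and 0 lower (1.15% of all probe sets were called higher), with a median change of 0.65 against -0.05 over all named genes. Mlc2, the regulatory light chain of myosin, had 9.65, 9.09, 9.47 and 9.57 in middle-aged and 10.63, 10.80 and 11.23 in old flies, a rise of 1.44 ± 0.22 (adjusted p = 0.000216). Its arrays lay about 1 log2 unit apart between the ages and close together within them. Mlc1, the alkali light chain of myosin, rose by 0.88 ± 0.23 (adjusted p = 0.0464, and 0.325 without old replicate 3). Of the 26 members not called, 10 also had no overlap upwards (8.45% of all probe sets did), such as Prm (paramyosin, 0.86 ± 0.25, adjusted p = 0.0732). Another 2 members, SERCA and flr, lay lower without overlap (11.7% of all probe sets did). The flight muscle protein gene fln was not called, with a change of 0.14 ± 0.31. Outside the list stv, the co-chaperone Starvin that maintains muscle, rose by 1.20 ± 0.22 (adjusted p = 0.00299, and 0.110 without old replicate 3). Without middle-aged replicate 4, 7 muscle genes were called, and without any other single array 2. The mean of the 29 genes was 8.85, 8.55, 8.60 and 8.94 in middle-aged and 9.09, 9.23 and 9.56 in old flies, so middle-aged replicates 1 and 4 lay above replicates 2 and 3, as in the mean of 37 neuronal genes. With arrays centred on the neuronal genes 2 muscle genes were called and the median was 0.37; the part of a shift in the share of tissues was not tested.

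**Figure D2:**
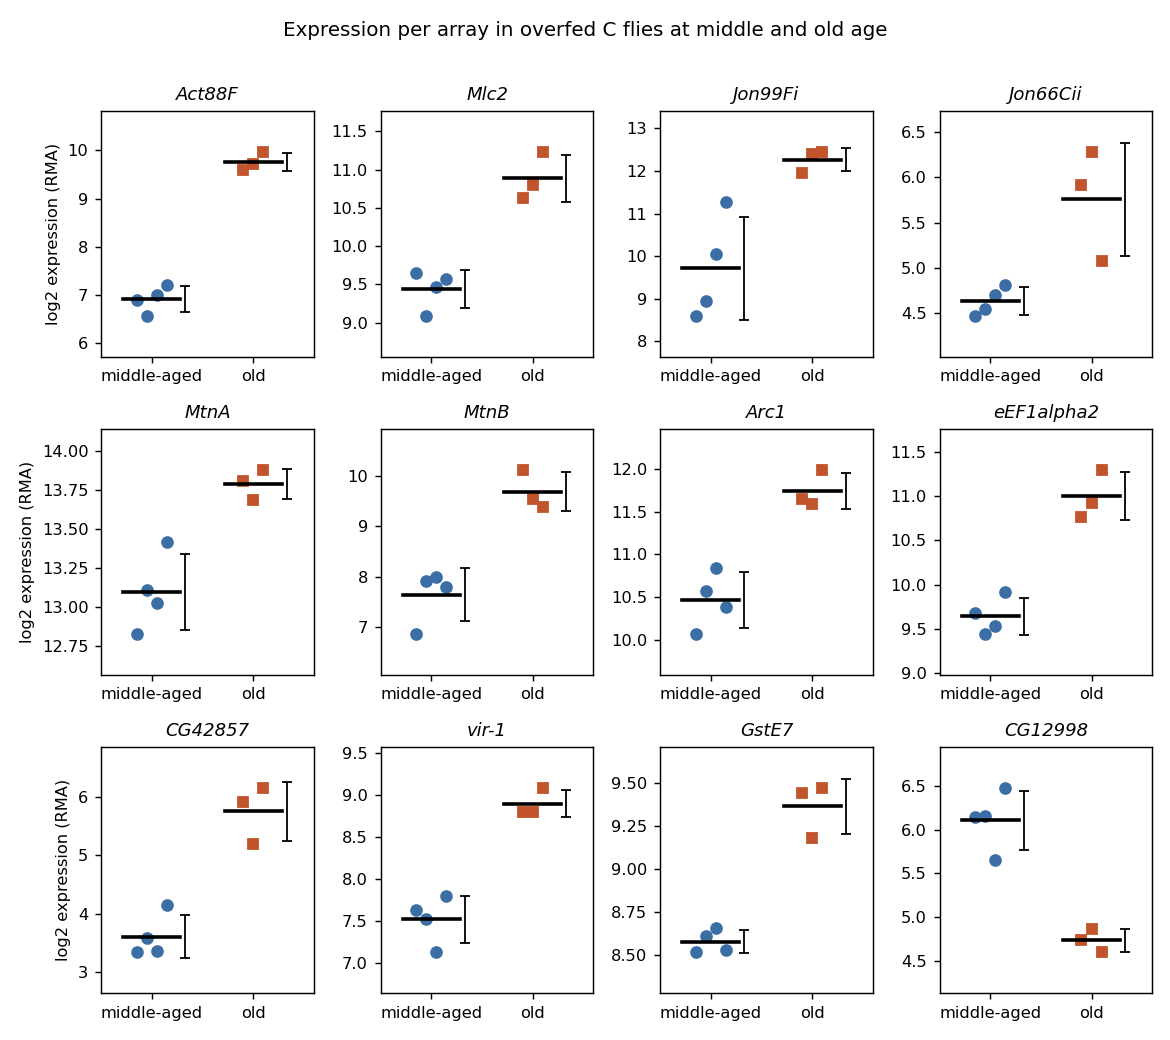
Log2 expression (RMA, y axis, a scale of its own in each panel) of 12 called genes on each array of overfed C flies; blue circles are the 4 middle-aged and orange squares the 3 old pools, black lines are means and bars 1 SD. In each panel the old pools lie outside the range of the middle-aged ones, closest for Jon66Cii, where old replicate 3 had 5.07 against a highest middle-aged value of 4.81.

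The list of digestive proteases had the highest median change of the lists with more than 2 measured members. Of 28 digestive protease genes 5 were called higher and 0 lower, the median change was 0.68, 27 had a change above 0 and 15 lay higher in old flies without overlap (8.45% of all probe sets did). All 5 belong to the chymotrypsin- or trypsin-like enzymes. The tissue that makes each of them, Ser12 included, was not measured in these whole flies. Jon99Fi had 8.60, 8.94, 10.05 and 11.27 in middle-aged and 11.96, 12.39 and 12.45 in old flies (change 2.55 ± 0.54, adjusted p = 0.00968). Jon65Ai had 6.20, 6.36, 6.97 and 8.58 and then 8.87, 9.74 and 9.64 (change 2.39 ± 0.49, adjusted p = 0.0078). In both genes middle-aged replicate 4 was the highest of its group and came within 0.7 of the lowest old pool.

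Jon66Ci and its neighbour Jon66Cii were steadier at middle age. Jon66Cii had 4.47, 4.55, 4.70 and 4.81 and then 5.92, 6.28 and 5.07, a rise of 1.12 ± 0.17 (adjusted p = 0.000296), and Jon66Ci rose by 1.70 ± 0.34 (adjusted p = 0.00653). Ser12 rose by 1.39 ± 0.32 (adjusted p = 0.0182). Of the 13 Jonah genes measured, 4 rose and 10 lay higher without overlap, and their median change was 1.12; near-identical copies such as those of the Jon99F and Jon65A groups can share probes. Jon25Bi just missed the threshold (8.10, 8.86, 9.05 and 9.73 against 10.43, 10.52 and 10.22, change 1.45 ± 0.39, adjusted p = 0.0509). The number of digestive proteases called was 2 without old replicate 2 or old replicate 3 and 6 without middle-aged replicate 4, whose list mean of 9.11 was above the other middle-aged means of 8.49, 8.53 and 8.58 and below the old ones of 9.54, 9.72 and 9.33. Jon99Fi was not called without middle-aged replicate 2 or old replicates 2 and 3 (adjusted p up to 0.0989), Jon65Ai without old replicates 2 and 3 (up to 0.0916), and Ser12 without 4 of the arrays in turn (up to 0.113).

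On optimal food 7 of these 28 proteases were called higher, with a median change of 0.39, and in overfed SR flies 1 was called higher (1.38% of all probe sets were) and 1 lower (0.417%), with a median of -0.09. On malnutrition the median was -0.55. The difference against malnutrition was called for Jon66Cii (1.05 ± 0.24, adjusted p = 0.0366) and for zetaTry (2.86 ± 0.56, adjusted p = 0.00665), that is for 2 of 28 (0.443% of all probe sets), and none was called against optimal food or against SR flies. With 1 array left out, the Jon66Cii difference was called in 2 of 7 fits and that of zetaTry in all 7. zetaTry itself was not called with age on overfeeding, at 0.66 ± 0.40, while it fell by 2.20 on malnutrition. Of 14 digestive lipases and 12 maltases and amylases 0 were called in overfed C flies (1.24% of all probe sets were). Their median changes were 0.15 and -0.17, and the lists were not tested against the proteases.

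**Figure D3:**
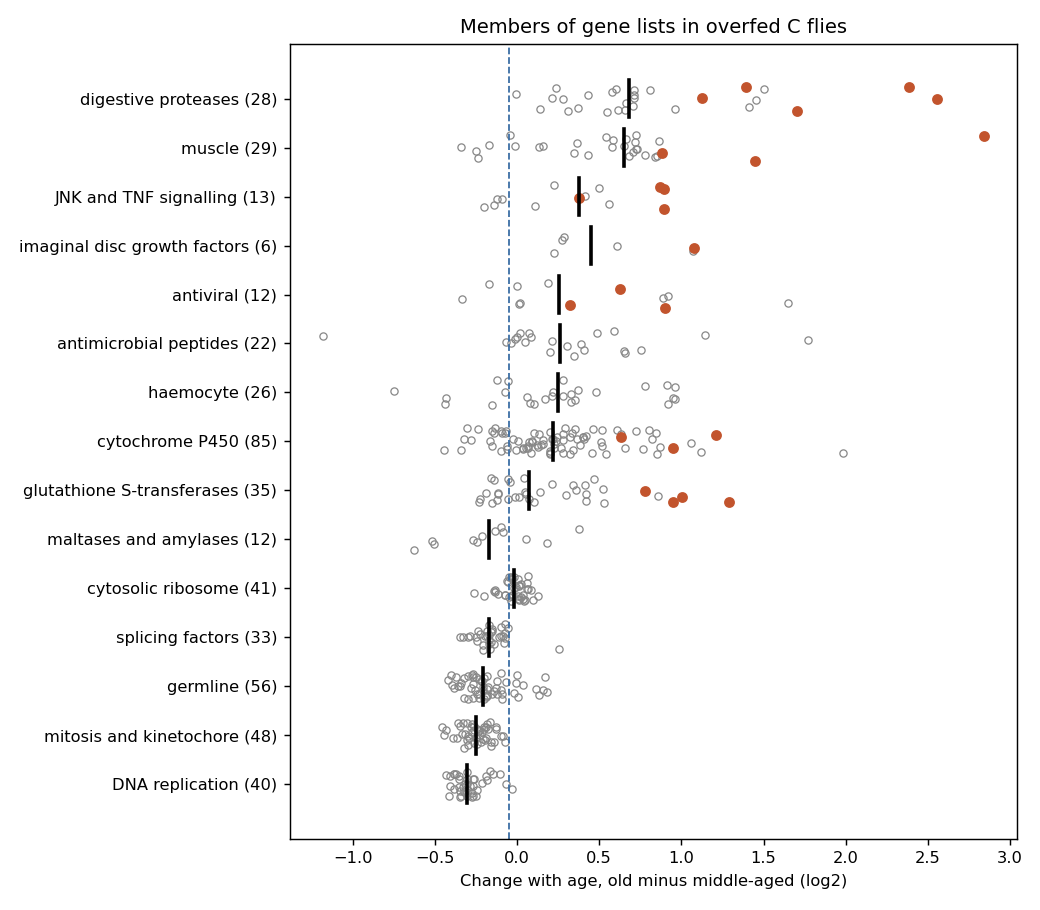
Change with age in overfed C flies (x axis, log2, old minus middle-aged) of the members of 15 gene lists, with the number of measured members after each name. Filled orange points were called, open grey points were not, black bars are list medians and the blue dashed line is the median of all named genes (-0.05); digestive proteases and muscle genes have the highest medians (0.68 and 0.65) and DNA replication genes the lowest (-0.30).

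Both metallothioneins that passed the test were high in old flies. MtnB had 6.86, 7.91, 8.0 and 7.80 in middle-aged and 10.12, 9.55 and 9.39 in old flies, a rise of 2.04 ± 0.43 (adjusted p = 0.00968, and up to 0.0552 without old replicate 1 or 3). MtnA had 12.83, 13.11, 13.03 and 13.42 and then 13.81, 13.69 and 13.88, a rise of 0.70 ± 0.11 (adjusted p = 0.000473). No old pool of either gene reached down to a middle-aged one. MTF-1, the factor that switches metallothioneins on with metals, rose by 0.34 ± 0.09 (adjusted p = 0.0459), a call that was lost without 6 of the 7 arrays in turn (adjusted p up to 0.410). Of the 4 metallothionein genes measured 2 were called higher (1.15% of all probe sets were), with a median change of 0.77. MTF-1 and this family were singled out after their values were seen. Tsf3, a transferrin of the iron-binding family, rose by 0.59 ± 0.15 (adjusted p = 0.033), and it too lost its call without 5 of the arrays (up to 0.253).

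Among enzymes of detoxification, 4 of 35 glutathione S-transferases rose and 0 fell, where 1.15% of all probe sets were called higher. GstE7 had 8.52, 8.61, 8.66 and 8.53 and then 9.44, 9.18 and 9.47, a rise of 0.78 ± 0.12 (adjusted p = 0.000216), with the 4 middle-aged pools within 0.14 of each other. GstE3 rose by 1.29 ± 0.23 (adjusted p = 0.00249, and 0.0528 without old replicate 3), GstE9 by 1.01 ± 0.24 and GstO3 by 0.95 ± 0.23. The list as a whole lay near the rest, with a median of 0.07, which became -0.21 when arrays were centred on neuronal genes. Of 85 cytochrome P450 genes 3 rose, Cyp6a21 (1.21 ± 0.27), Cyp6a13 (0.95 ± 0.19) and Cyp4ad1 (0.64 ± 0.16), with a list median of 0.22 (-0.06 after that centring). Of 35 UDP-glycosyltransferases Ugt35B1 rose, by 0.98 ± 0.23. Apart from GstE7 these genes lost their call without 1 to 5 of the arrays in turn, with adjusted p up to 0.335, and without old replicate 3 no P450 gene was called. Irc, the immune-regulated catalase of the gut, rose by 0.89 ± 0.23 (adjusted p = 0.0374, up to 0.322).

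The antimicrobial peptides, the best known sign of ageing in flies, did not pass the test on overfeeding. Of 22 peptide genes in the list 0 were called, 5 had an unadjusted p under 0.05, and the median change was 0.26 (-0.02 after centring on neuronal genes). On optimal food 13 of the same genes were called higher in C flies (9.76% of all probe sets were), with a median of 0.94. The change, with its sign, was lower on overfeeding than on optimal food for 19 of 22. Drsl4 is 1 of them, with -1.18 against -0.30. With array weights, which give quieter arrays more say, 6 peptide genes were called higher and 1 lower on overfeeding. AttC, an attacin that the platform's annotation does not name and that is not in the list, was the exception: it had 7.24, 6.62, 7.01 and 7.36 and then 9.19, 9.13 and 8.99, a rise of 2.05 ± 0.54 (adjusted p = 0.0453) against 4.44 on optimal food. That call was lost without any array but middle-aged replicate 4 (adjusted p up to 0.216), and the difference between the foods was not called.

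DptB, Diptericin B of the Imd pathway, showed the contrast between the foods most plainly. In overfed flies it had 6.97, 5.98, 6.54 and 7.07 at middle age and 7.05, 6.68 and 7.96 at old age, and the ages overlapped (change 0.59 ± 0.52, adjusted p = 0.584). On optimal food its mean went from 6.29 ± 0.61 (range 5.74 to 7.08) to 11.16 ± 1.28 (9.63 to 12.72, n = 4 each), a rise of 4.87 ± 0.48. The difference of the changes was -4.27 ± 0.71 (adjusted p = 0.00736) and was called without each of the 7 arrays in turn. The middle-aged means on both foods lay close together, while the old means were 7.23 ± 0.66 and 11.16 ± 1.28. In old C flies on malnutrition the mean was 5.68 ± 0.02 (n = 3).

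**Figure D4:**
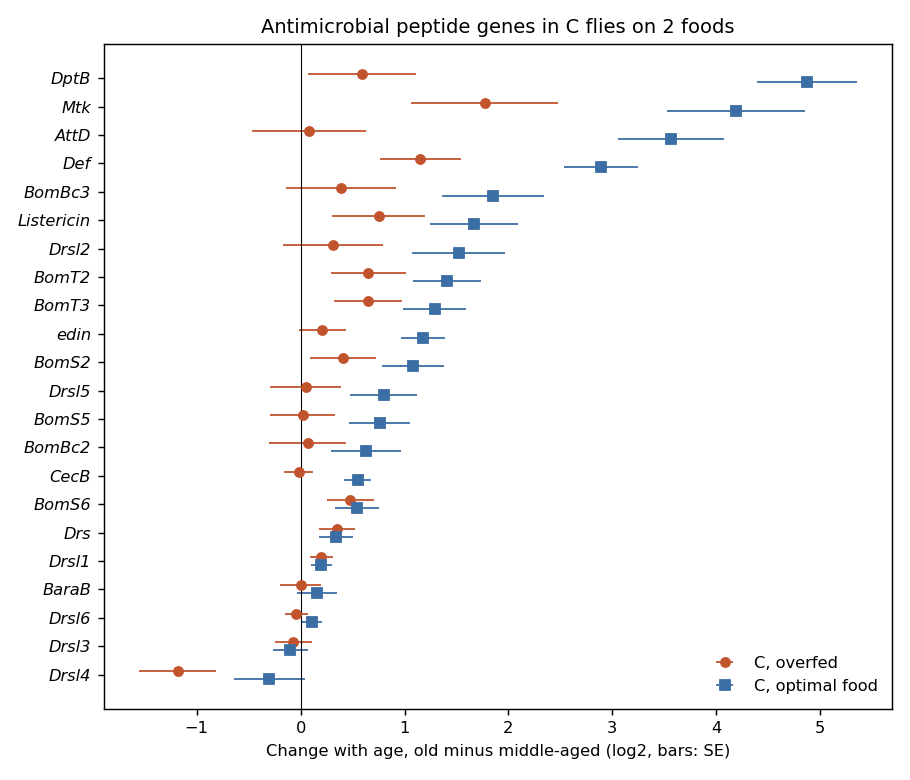
Change with age (x axis, log2, old minus middle-aged, bars SE) of 22 antimicrobial peptide genes in C flies on overfeeding (orange circles) and on optimal food (blue squares), ordered by the change on optimal food. The change on overfeeding lies lower on the axis for 19 of 22 genes, and for DptB alone the difference was called.

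For the other peptides no difference between the foods was called. Mtk, the peptide Metchnikowin, had 7.80, 7.86, 8.65 and 7.87 and then 8.95, 10.04 and 10.47 on overfeeding (1.77 ± 0.71, adjusted p = 0.219) and rose by 4.19 on optimal food. Def, Defensin, changed by 1.15 ± 0.39 (adjusted p = 0.136) with no overlap between the ages, and rose by 2.89 on optimal food. AttD stayed between 3.46 and 4.03 on all 7 overfed arrays and rose by 3.56 on optimal food, with a difference of -3.48 that had an adjusted p of 0.0916. AttA, whose probe set may also read AttB, changed by 0.71 ± 0.55, and Drsl2, a Drosomycin-like gene, by 0.31 ± 0.48. Drs itself, Drosomycin of the Toll pathway, was high throughout (11.87 to 12.75) with changes of 0.35 on overfeeding and 0.34 on optimal food, neither called. Drsl4 lay lower in old flies (7.89, 8.54, 9.13 and 9.93 against 7.94, 7.77 and 7.36, with overlap), a change of -1.18 ± 0.37. Among the 7 fits that left out 1 array, it was called only without middle-aged replicate 1.

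Of 18 genes of the Imd pathway 2 were called higher (1.15% of all probe sets were). The list median was -0.02 and 10 of the 18 had a change below 0. Without overlap 3 lay higher and 3 lower (8.45% and 11.7% of all probe sets did). The 2 called were pirk, a feedback inhibitor of the pathway, with 5.32, 5.63, 5.21 and 5.39 and then 7.54, 6.40 and 6.54 (1.44 ± 0.31, adjusted p = 0.00994), and Rel, the NF-kappaB factor of the pathway (0.70 ± 0.15, adjusted p = 0.00968). pirk lost its call without middle-aged replicate 3 or old replicate 1 (up to 0.0916) and Rel without replicate 3 of either age (up to 0.216). Of 20 Toll pathway genes and 9 genes for recognition of bacteria 0 were called. PGRP-SB1, a secreted peptidoglycan amidase, had 7.66, 7.91, 8.18 and 8.27 and then 8.63, 8.53 and 7.89, and with 0.34 ± 0.40 on overfeeding against a rise of 3.16 on optimal food its difference was called (-2.82 ± 0.55, adjusted p = 0.0259). PGRP-SA, a receptor upstream of Toll, lay at 6.66 to 7.05 and then at 7.82 to 8.11 (1.11 ± 0.30, adjusted p = 0.0525). The thioester protein gene Tep3 rose by 0.89 ± 0.23 (adjusted p = 0.0429, up to 0.347), and Tep4 changed by 0.76 ± 0.21 (adjusted p = 0.0641).

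vir-1, a virus-induced gene downstream of the JAK-STAT pathway, was higher in every old pool than in any middle-aged pool: 7.63, 7.52, 7.13 and 7.79 in middle-aged and 8.80, 8.80 and 9.08 in old flies (1.37 ± 0.25, adjusted p = 0.00232). It rose on optimal food (1.78) and in overfed SR flies (1.54) as well. Socs36E, the feedback inhibitor of JAK-STAT, rose by 1.22 ± 0.32 (adjusted p = 0.0444, up to 0.466). Of 10 genes in the list of the JAK-STAT pathway, which does not hold Socs36E, vir-1 alone was called. In that list 7 had a change below 0, 3 lay lower without overlap (11.7% of all probe sets did) and the median was -0.09. Of 12 antiviral genes 3 were called higher (1.15% of all probe sets were). These were pst, which limits infection by a picorna-like virus (0.90 ± 0.22), cGlr2, a receptor that makes cyclic dinucleotides (0.62 ± 0.17), and ref(2)P, the autophagy receptor related to p62 (0.32 ± 0.08). Their adjusted p was 0.0309 to 0.0464, each lost its call without 6 of the 7 arrays in turn, and the list median of 0.25 became -0.03 after centring on neuronal genes. Haemocyte genes were not called (0 of 26, median 0.25), while Idgf3, a secreted chitinase-like growth factor, rose by 1.08 ± 0.22 (adjusted p = 0.0079, and 0.134 without an array). Idgf3 was the 1 called of 6 Idgf genes, and all 6 lay higher in old flies without overlap (8.45% of all probe sets did), Idgf1 by 1.07 ± 0.29 (adjusted p = 0.0525).

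Stress signalling through TNF and JNK had 4 of 13 members called higher and 0 lower (1.15% of all probe sets were called higher), with a median of 0.38. With arrays centred on neuronal genes 1 was called and the median was 0.10. The 4 sit at different steps, not next to each other throughout. The TNF ligand egr had 6.25, 6.14, 5.77 and 6.25 against 6.79, 6.94 and 7.19, a rise of 0.87 ± 0.21 (adjusted p = 0.0261). The others were its receptor wgn (0.89 ± 0.24), the Fos factor kay (0.89 ± 0.23) and the phosphatase puc, the feedback inhibitor and usual readout of the pathway (0.38 ± 0.10). The kinases bsk (JNK) and hep changed by 0.23 and -0.12 and were not called. Further genes rose beside them, all but Damm chosen after their values were seen: Mmp1, a matrix metalloproteinase (1.16 ± 0.25), Atf3, a stress-responsive bZIP factor (1.0 ± 0.23), p38c, a stress kinase (1.16 ± 0.27), and Damm, a caspase (1.97 ± 0.47). None of the 4 members of the list was called without old replicate 2 or 3 or without middle-aged replicate 2 or 3, and leaving out an array took the adjusted p of these 8 genes up to 0.364.

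In the list of adipokinetic hormone and sugar sensing 2 of 11 genes were called higher (1.15% of all probe sets were), with a median of 0.26. AkhR, the receptor for adipokinetic hormone in the fat body, had 8.20, 7.62, 7.45 and 8.25 and then 8.63, 9.38 and 9.52 (1.29 ± 0.31, adjusted p = 0.0275), and the difference against malnutrition was called (1.81 ± 0.44, adjusted p = 0.0478). That difference was called in 2 of the 7 fits that left out 1 array. The activin-like ligand daw rose by 1.28 ± 0.32. Of 21 genes of fat synthesis and storage and of 9 lipoprotein genes 1 each was called higher, with medians of 0.12, and of 11 glycolysis genes 0 were called. Pdk, the kinase that shuts pyruvate dehydrogenase, had 10.11, 10.19, 10.03 and 10.08 and then 10.64, 10.52 and 10.88, a rise of 0.58 ± 0.10 (adjusted p = 0.00171). It did not pass on optimal food (0.08) or malnutrition (-0.19), and its difference against malnutrition was called (0.77 ± 0.14, adjusted p = 0.00399) while that against optimal food was not. Iml1, a subunit of the complex that restrains TOR signalling when amino acids are scarce, rose by 0.76 ± 0.16, Dgat2, an enzyme of triglyceride synthesis, by 0.90 ± 0.24, and Apoltp, a lipid transfer apolipoprotein, by 1.07 ± 0.23. BNIP3, a receptor that marks mitochondria for removal, rose by 1.06 ± 0.20 (adjusted p = 0.00406). The phosphoserine phosphatase gene aay rose by 0.83 ± 0.15 and by 1.08 in overfed SR flies. Apart from BNIP3 these genes lost their call without 1 to 6 of the arrays in turn, with adjusted p up to 0.263. Of 16 genes of insulin signalling 0 were called.

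Peptide hormones and receptors chosen after their values were seen rose as well: Gbp1, a growth-blocking cytokine (1.27 ± 0.28), the ion transport peptide gene ITP (1.03 ± 0.22), the myosuppressin gene Ms (0.90 ± 0.22), the sex peptide receptor SPR (0.97 ± 0.24) and the BMP receptor wit (1.02 ± 0.20). Kr-h1, which answers to juvenile hormone, rose by 1.26 ± 0.28, and esg, a Snail-type factor found in intestinal stem cells, by 1.36 ± 0.33. Ac78C, Ac13E and Ac76E, 3 of the 9 adenylyl cyclase genes measured, rose by 1.15, 0.95 and 0.89 (1.15% of all probe sets were called higher). Of 16 Tsp42E tetraspanin genes, which lie in a cluster, Tsp42Ei, Tsp42El and Tsp42Ed rose by 1.29, 1.14 and 1.13, and 9 lay higher without overlap (8.45% of all probe sets did). All of these lost their call without 1 to 6 of the arrays in turn (adjusted p up to 0.361). In 8 of these 13 genes middle-aged replicates 1 and 4 lay above replicates 2 and 3, as did the mean of 37 neuronal genes (5.90, 5.67, 5.57 and 5.99 in middle-aged and 5.91, 6.07 and 6.22 in old flies). Of the 37, Nrg, a cell adhesion gene, rose, a call lost without 5 of the arrays in turn (adjusted p up to 0.335), and 36 were not called. The part of a shift in the share of tissues in these rises was not tested. With arrays centred on the neuronal list, which lowers every change by 0.28, 113 probe sets were called higher and 16 lower.

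Genes with the steadiest rises came from several functions. Arc1, a capsid-like protein that carries RNA between cells, had 10.07, 10.57, 10.84 and 10.38 and then 11.65, 11.59 and 11.99, a rise of 1.28 ± 0.17 (adjusted p = 3.85e-05), and it rose more on optimal food (2.35) without a called difference. The elongation factor eEF1alpha2 had 9.68, 9.44, 9.53 and 9.92 and then 10.77, 10.93 and 11.30 (1.36 ± 0.19, adjusted p = 5.68e-05), and 0 of the other 44 translation factors were called. AnxB9, an annexin, rose by 1.33 ± 0.21, and Nepl17, of the neprilysin-like metalloproteases, by 1.01 ± 0.16 against a fall of 0.83 on malnutrition (difference 1.84 ± 0.23, adjusted p = 2.15e-05). CG43090 rose by 2.12 ± 0.35, from 8.21 to 10.04 at middle age to 10.94 to 11.47 at old age, and CG10814 by 1.73 ± 0.32. CG42857, for which no role is given here, had 3.35, 3.58, 3.37 and 4.15 and then 5.92, 5.19 and 6.15. Its rise of 2.14 ± 0.23 had the smallest adjusted p of the comparison (6.25e-07).

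The remaining high changes were those of CG7298 (1.90 ± 0.39), CG16762 (1.80 ± 0.45), CG5773 (1.58 ± 0.32), Pebp1, a phosphatidylethanolamine-binding protein (1.56 ± 0.40), CG9568 (1.54 ± 0.35), CG13482 (1.50 ± 0.35), CG31041 (1.48 ± 0.39), Ag5r2, a secreted antigen 5-related protein (1.48 ± 0.34), and CG10126 (1.46 ± 0.29). CG3036, which the study names, rose by 1.09 ± 0.19. These 10 lost their call without 1 to 6 arrays in turn, with adjusted p up to 0.239. Cuticle protein genes were mixed, with 3 of 105 higher (Cpr66D 1.26, Cpr62Bb 0.84 and TwdlT 0.73) and Cpr65Av lower (-0.46), and of 49 odorant-binding genes Obp56d (1.24) and Obp19d (0.89) rose; without old replicate 3 none of these 6 was called, and each lost its call without 2 to 6 arrays in turn (adjusted p up to 0.436). The serpins Spn88Eb (1.27 ± 0.32) and Spn42De (0.44 ± 0.11), inhibitors of serine proteases, rose among 28 measured, and lost their call without 6 and 5 of the arrays in turn (up to 0.432). Beside these counts for cuticle, odorant-binding and serpin genes, 1.15% of all probe sets were called higher and 0.0897% lower.

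Few genes fell, and most by little. CG12998, with no role given here, had 6.15, 6.16, 5.66 and 6.48 and then 4.74, 4.86 and 4.60, a fall of -1.38 ± 0.16 (adjusted p = 1.64e-06), and its difference against malnutrition was called (-1.61 ± 0.23, adjusted p = 7.39e-05). CG15263 (-1.10 ± 0.23) and Cht2, a chitinase (-0.88 ± 0.20), followed. ND-B8, a subunit of respiratory complex I, fell by 0.71 to low values (4.10, 3.87 and 3.71), alone of 75 genes of oxidative phosphorylation. TFAM, which packages and transcribes mitochondrial DNA, had 10.16, 10.00, 10.16 and 10.06 and then 9.89, 9.58 and 9.77, a fall of -0.35 ± 0.09 (adjusted p = 0.0457). The other named falls were those of CG7460 (-0.69), CG11837 (-0.60), CG8132 (-0.48), CG5068 (-0.46), Nepl5 (-0.42), CG17698 (-0.41), the transcription cofactor nab (-0.41), Rbbp5, a subunit of histone methyltransferase complexes (-0.39), and CG30376 (-0.27). Apart from CG12998, each of these lost its call without 2 to 6 of the arrays in turn, with adjusted p up to 0.358. Cap-H2, a condensin subunit, missed the threshold (-0.44 ± 0.12, adjusted p = 0.0544).

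No gene of DNA replication, mitosis, the germline list or splicing was called, and most had a change below 0. Of 40 DNA replication genes 0 were called, none had a change above 0, 23 lay lower in old flies without overlap (11.7% of all probe sets did) and the median was -0.30. Their list mean was 10.04, 10.05, 10.00 and 9.86 at middle age and 9.81, 9.67 and 9.61 at old age. Mitosis and kinetochore genes had a median of -0.25 (0 of 48 called, 48 below 0, 19 lower without overlap), germline genes -0.21 (0 of 56 called, 48 below 0, 17 lower) and splicing factors -0.17 (0 of 33 called, 32 below 0, 21 lower), while 41 cytosolic ribosomal genes had a median of -0.02. On optimal food 38 of the 40 replication genes were called lower in C flies (16.3% of all probe sets were), with a median of -0.58, and the difference between the foods was called for none. With array weights 24 of the 40 were called lower on overfeeding.

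The genes of the eggshell varied far more between pools of an age than between ages. The mean of 16 chorion and vitelline membrane genes was 6.75, 8.60, 9.57 and 10.58 at middle age (8.88 ± 1.63) and 8.58, 8.59 and 9.90 at old age (9.02 ± 0.76), and 0 of 16 were called. The 3 yolk protein genes had list means between 12.86 and 13.52 on the 7 arrays, with a median change of 0.04. In overfed SR flies 8 of the 16 eggshell genes were called lower with age (0.417% of all probe sets were), with a median of -3.43. None was called for the difference between the lines. Send1, a protease of the spermatheca, the sperm store of the female, had 7.19, 6.51, 6.85 and 7.61 and then 8.70, 8.63 and 8.63, a rise of 1.61 ± 0.39 (adjusted p = 0.0283) that was lost without 5 of the arrays in turn (up to 0.176). In SR flies on the same food Send1 fell by 1.36, and the difference was called (2.97 ± 0.54, adjusted p = 0.0116). Send2, the other spermatheca marker, had a change of -0.80 in overfed C flies (adjusted p = 0.651 in limma). Of 11 genes in the spermatheca list Send1 was the 1 called (1.15% of all probe sets were called higher).

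Against the other ageing comparisons, overfeeding in C flies was closest to optimal food. Of the 235 probe sets called on overfeeding 197 (83.8%) were also called on optimal food, all 197 in the same direction, and they are 3.99% of the 4936 called there (26% of all probe sets). With overfed SR flies 70 were shared, 29.8% of the 235 and 20.6% of the 340 called in SR flies (1.79% of all probe sets), 69 of them in the same direction. With C flies on malnutrition, where 0.823% were called, 8 were shared, 4 of them in the same direction. The 218 higher calls had median changes of 0.94 on optimal food, 0.54 in overfed SR flies and 0.18 on malnutrition. The changes of the 18952 probe sets correlated at 0.725, 0.456 and 0.065 with these comparisons, a description over genes that move together.

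The difference between overfeeding and optimal food was called for 7 probe sets (0.0369%), all with the smaller change on overfeeding, against 1016 at an unadjusted p under 0.05. They are DptB and PGRP-SB1, CG14499 (0.63 against a rise of 4.95, difference -4.32 ± 0.81), Npc2e, a sterol-binding protein (-0.02 against 3.53, difference -3.56 ± 0.65), the Tak1-like kinase gene Takl1 (0.17 against 1.84, difference -1.66 ± 0.34), Ugt36A1 (-0.29 against 0.45, difference -0.75 ± 0.14) and 1 unnamed probe set. None of the 7 was called for age on overfeeding. CG14499 had 5.74, 5.66, 8.48 and 6.12 at middle age and 6.53, 7.17 and 7.69 at old age, so 1 middle-aged pool was as high as the old ones. The difference was called without each array in turn for DptB and the unnamed probe set, while Npc2e, PGRP-SB1, CG14499, Takl1 and Ugt36A1 lost it in 3 to 7 of the 7 fits, with adjusted p up to 0.184. The test called 2 differences without middle-aged replicate 3, and 3 each without middle-aged replicate 2 or old replicate 2.

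Between C and SR flies on overfeeding 18 probe sets differed in their change with age (0.095%), 9 with the higher change in C flies and 9 with the lower (0.0475% each). Of the 12 maltase and amylase genes 5 were among them: Mal-A1, Mal-A6, Mal-A7, Mal-A8 and tobi, a glucosidase under the control of insulin and adipokinetic hormone. Mal-A1 had 10.21, 10.71, 10.35 and 10.35 and then 10.52, 10.24 and 9.82 in overfed C flies, and in SR flies its mean went from 9.08 ± 0.81 to 11.27 ± 0.45 (n = 4 each). Mal-A7 changed by -0.24 in C flies and rose by 3.18 in SR flies (difference -3.42 ± 0.68, adjusted p = 0.0191). The differences of the 5 genes were -2.40 to -3.42, and each lost its call without old replicate 3, with adjusted p of 0.0991 to 0.254. Old replicate 3 had the lowest value of all 5 among the 7 arrays, at 7.62 for Mal-A7 against 9.37 and 9.00 in the other old pools.

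The other differences between the lines ran in both directions. CG34040 (-0.19 in C and 3.60 in SR flies), mey, a zona pellucida domain protein (-0.02 and 2.51), and both probe sets of CG42335 had the larger change in SR flies. CG17192 and CG6296, from the list of digestive lipases, had changes of 1.23 and 0.78 in C flies, neither called, and fell by 2.49 and 1.21 in SR flies. CG32751 (1.19 and -1.99), CG13947 (1.29 and -1.39) and a probe set of Strn-Mlck, a kinase of muscle (0.46 and -1.70), had the same order. This Strn-Mlck difference was called in 4 of the 7 fits that left out 1 array. The Strn-Mlck probe set with the highest mean changed by 0.70 in C and 0.38 in SR flies. Its difference of 0.33 was not called. CG42857, Fhos, a formin of muscle and other cells, Cyp4ad1 and Send1 are the 4 genes also called for age in overfed C flies. Fhos rose by 0.58, a call lost without 3 of the arrays in turn (adjusted p up to 0.355). For CG42857 the change was 2.14 in C and 0.08 in SR flies (difference 2.06 ± 0.32, adjusted p = 0.00225). The differences of CG42857, Send1, CG32751 and CG17192 were called without each array in turn. Without old replicate 3 the test called 5 such differences, all with the higher change in C flies, and without middle-aged replicate 2 it called 5, 4 of them with the higher change.

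**Figure D5:**
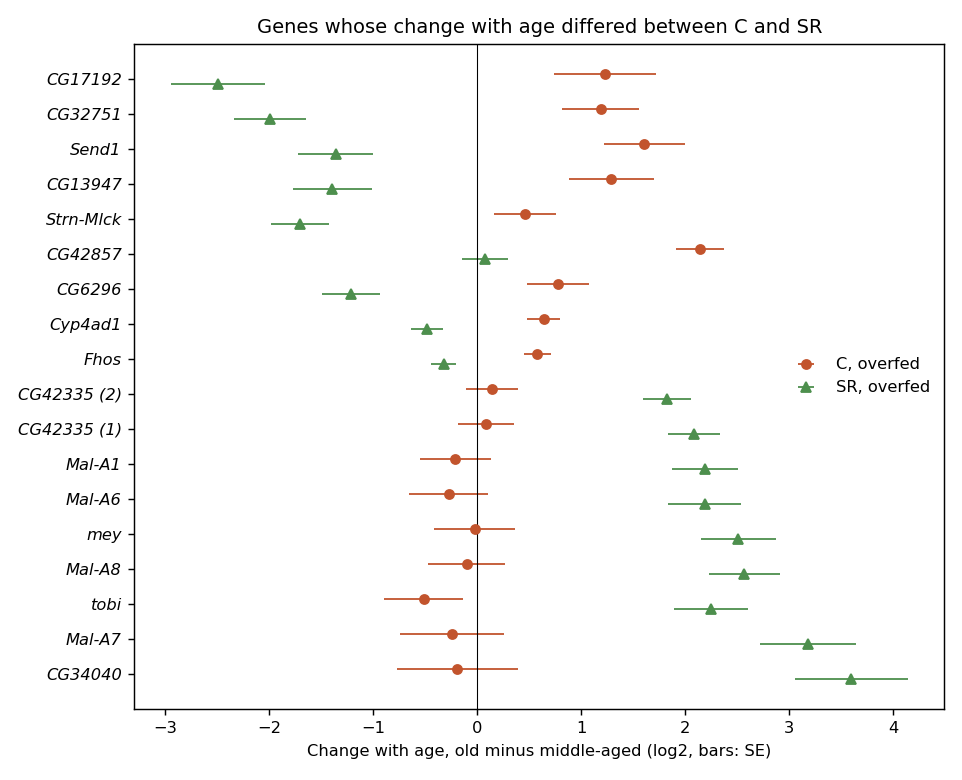
Change with age (x axis, log2, old minus middle-aged, bars SE) of the 18 probe sets whose change differed between overfed C flies (orange circles) and overfed SR flies (green triangles), ordered by the difference. For the lower 9, the maltases among them, the C flies lie near 0 and the SR flies between 1.83 and 3.60.

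Against malnutrition 84 probe sets differed (0.443%), 76 with the higher (0.401%) and 8 with the lower change on overfeeding (0.0422%), and 22 of them were also called for age on overfeeding. The highest differences were those of LManVI, a lysosomal mannosidase (3.88 ± 0.88), CG11911 (3.41 ± 0.76), CG12374 (3.41 ± 0.75), Send1 (3.11 ± 0.56) and Npc2f, a sterol-binding protein (2.95 ± 0.56). Those of Send1 and Npc2f were called in all 7 fits that left out 1 array. The differences of LManVI, CG11911 and CG12374 were called in 3 of the 7 each. LManVI, CG12374 and Npc2f fell with age on malnutrition, with changes of -3.06, -2.58 and -1.97, and were not called on overfeeding (0.82, 0.83 and 0.98). CG15254 rose on overfeeding (4.91, 4.19, 4.56 and 4.80 against 5.61, 5.82 and 5.91, 1.16 ± 0.24, not called without middle-aged replicate 2 or old replicate 3, with adjusted p up to 0.1) and fell by 1.50 on malnutrition, a difference of 2.67 ± 0.34 (adjusted p = 2.47e-05). The 4 lowest were those of CG11425 (0.04 on overfeeding and a rise of 2.62 on malnutrition), CG9875 (-1.63 ± 0.32), CG12998 (-1.61 ± 0.23) and Cubn2, related to the endocytic receptor cubilin (-1.57 ± 0.36). The Cubn2 difference was called in 2 of the 7 fits that left out 1 array, and those of CG11425, CG9875 and CG12998 in all 7. Without old replicate 3 the test called 36 differences against malnutrition, 35 of them among the 84. Without old replicate 2 it called 42 and without middle-aged replicate 2 or 3 it called 47 each.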

How the data were processed

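The authors corrected, quantile-normalized and summarised the arrays with RMA and deposited log2 values for 18952 probe sets; the submitters' processing notes name R 2.7.0, and no genome build is used here. No further normalization was applied, so changes common to the bulk of the genes on an array cannot be seen, and the number of arrays limits the precision. Groups came from the labels. A linear model with a mean for each of the 12 groups was fitted to the 46 arrays (limma 3.58.1, R 4.3.3, lmFit and eBayes, two-sided), in place of the MAANOVA permutation test of the methods, and p-values of each contrast were adjusted over all probe sets. Tables and figures were made in Python 3.11.15 with numpy 2.4.6 and pandas 2.3.3. The platform's annotation gives 1 symbol for 13646 probe sets, of which 13543 matched a RefSeq gene (names and neighbours only, from the assembly Release 6 plus ISO1 MT); 11981 genes are measured, each represented in the lists by its probe set with the highest mean over all arrays. AttA, AttC, PGRP-SA, Socs36E and others unlisted there, 21 probe sets in all, were named through the paper's tables. PGRP-SC1a, PGRP-SC1b, CG15434 and CG3709 were not analysed here. Among the called genes named here, 16 had 19 further probe sets on the array. The test called 2 of these 19, each with the sign of its gene's call, and did not call the other 17. A call thus holds for the probe set tested and need not hold for every probe set of its gene.

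Members and gene lists were chosen with earlier results of these data known, and members found not to belong to their list (Cyp1 and Cyp40, which are cyclophilins, Cp110, Cp190, the yolk receptor gene yl, and the wrongly matched Stip1, Arpc1, t-cup, Slc45-1, uzip and, among mitosis genes, aub) were taken out after their values were seen. Named are the 20 highest and 20 lowest changes among called genes without overlap (16 genes with a name fell in all), up to 6 called and 2 uncalled members per list, 5 genes per direction of each difference, genes the study names, and the 10 with the largest test statistic. Outside that rule, and chosen after their values were seen, are aay, AnxB9, Atf3, BNIP3, CG15254, CG2157, CG31606, CG31704, CG31955, CG42335, Drs, Fhos, Iml1, Mal-A1, Mal-A6, Mmp1, MTF-1, p38c, Pdk, Socs36E, Ugt36A1, zetaTry and the hormone, receptor, adenylyl cyclase and tetraspanin genes named with them. Fits were tested on simulated data with independent normal noise, 1 spread per probe set for all groups and 200 changed probe sets. For age in overfed C flies over 18952 probe sets, 91% of probe sets changed by 1 and 99% of those changed by 2 were called. Shifts that many genes of an array share were not simulated, so these shares do not measure the power on the real arrays. Alternatives were leaving out each array, subsets of arrays, a minimum mean of 5, centring, array weights, other variance settings and the replicate number as a block. The numbers do not pair the pools (deviations of same-numbered arrays correlated at 0.184, 0.067 and -0.081).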

Additional observations from a re-analysis of the deposited data

Results flagged for a closer look

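A middle-aged pool lay apart from the other 3 of its group, by a gap past the critical value of Dixon's test for 4 values, for 15 of 209 genes and list means tested; chance alone does so in about 1 of 20 groups. Replicate 1 was lowest for MtnB (6.86), nab (4.56) and Obp56d (10.81). Replicate 2 was lowest for fln (7.71) and for the mean of the tricarboxylic acid cycle genes (9.93). Replicate 3 was highest for CG14499 (8.48), CG31041 (7.19), Mtk (8.65) and the mean of the antiviral genes (8.01). Replicate 4 was highest for Nrg (7.44), Tsp42Ed (8.89) and the means of the haemocyte genes (5.91), digestive proteases (9.11) and mitochondrial ribosomal genes (9.67), and lowest for CG7460 (5.60). Groups of 3 old pools were not tested in this way.

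The change with age in overfed C flies differed from that in another group by a test of the difference itself. Against optimal food 7 probe sets differed, with differences of -4.32 for CG14499, -4.27 for DptB, -3.56 for Npc2e, -2.82 for PGRP-SB1, -1.66 for Takl1 and -0.75 for Ugt36A1. Against SR flies on the same food 18 probe sets differed. The change was lower in C flies for CG34040 (-3.79), Mal-A7 (-3.42), tobi (-2.76), Mal-A8 (-2.67), mey (-2.53), Mal-A6 (-2.45), Mal-A1 (-2.40) and CG42335 (-1.99). It was higher for CG17192 (3.71), CG32751 (3.18), Send1 (2.97), CG13947 (2.69) and a probe set of Strn-Mlck (2.16). The same held for CG42857 (2.06), CG6296 (1.99), Cyp4ad1 (1.11) and Fhos (0.90).

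Against malnutrition 84 probe sets differed. Among the genes named here the change was higher on overfeeding for LManVI (3.88), CG11911 (3.41), CG12374 (3.41), Send1 (3.11), Npc2f (2.95), zetaTry (2.86), Act88F (2.84), CG15254 (2.67), CG42857 (2.06), Nepl17 (1.84), AkhR (1.81), Ugt35B1 (1.76), TwdlT (1.40), Obp19d (1.39), CG31704 (1.27), Cyp6a13 (1.21), Jon66Cii (1.05), Iml1 (0.96) and Pdk (0.77). It was lower for CG11425 (-2.58), CG9875 (-1.63), CG12998 (-1.61) and Cubn2 (-1.57). Among these genes, CG31704 (1 fit) and AkhR, Jon66Cii, Iml1 and Cubn2 (2 fits each) kept their call in the fewest of the 7 fits without 1 array.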

How the results depend on the processing

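The count of 235 probe sets was 675 with the 7 arrays fitted alone, 368 with a minimum mean of 5, 129 with arrays centred on neuronal genes and 2973 (1554 higher, 1419 lower) with array weights; the cause was not tested. With arrays centred on their median, a shift of every change by -0.06, the count was 268 (233 higher, 35 lower). Leaving out 1 array gave 27 to 383. Against optimal food the 7 differences became 2 with the C arrays alone, 13 with neuronal centring and 28 with array weights, and 2 to 8 with an array left out. Against SR flies 18 became 80 with array weights, and 5 to 26 with an array left out. Against malnutrition 84 became 284 with array weights, and 36 to 106 with an array left out. With the replicate number as a block the count for age was 192 over all arrays and 719 over the 6 arrays of overfed C flies that share a number; the numbers do not pair the pools, and the block over all arrays gave 7, 24 and 77 differences. No call of the 108 named genes changed direction under any alternative run. Centring on neuronal genes ended the calls of CG10814, MtnA, GstE7, CG31606 and Jon66Cii, which all fits without 1 array kept. The number of arrays limits the precision.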
